A study of Rattus norvegicus with 20 samples.

Results

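The nuclear genes of oxidative phosphorylation were followed in the hippocampus of 4-month female rats. Members were taken by symbol from the 2 gene tables, as every listed gene whose symbol starts with Nduf, Sdh, Uqcr or Atp5, or with Cox followed by a digit from 4 to 8. The rule found 88 of the 17168 genes listed, of which 42 carry a complex I symbol, 5 a complex II symbol, 8 a complex III symbol, 16 a complex IV symbol and 17 a complex V symbol. By name, 6 of the complex I and 1 of the complex II symbols are assembly factors. Cox7a2l is a supercomplex factor, Cox6c-ps1 a pseudogene by symbol, and Atp5s and Atp5sl are not subunits. Counts over subunits alone leave these out, and Ndufa4 and Ndufa4l2 too. Reads were present for 86 of the 88 members in each table, and Cox6c-ps1 and Cox8c were listed at 0 in all 20 rats. A mean of at least 10 reads per rat was reached by 82 members in the genotype table and by 83 in the treatment table, and these are called counted members below.

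The study asked whether the transcriptome differs early in a rat model of Alzheimer's disease, and whether a drug pair shifts it. TgF344-AD (TG-AD) rats are Fischer 344 rats that carry human APPsw and PS1-ΔE9 transgenes, both driven by the prion promoter, in addition to the endogenous rat genes. In the genotype table, 5 untreated wild-type rats (WTNT) stand beside 5 untreated TG-AD rats (TGNT), all on plain chow. In the treatment table, 4 untreated TG-AD rats (TGNT) stand beside 6 TG-AD rats (TGTR) fed chow with diazoxide and dibenzoylmethane (DZ/DIB) from day 52 of age. All rats were female and 4 months old. The TGNT rats of the 2 tables are different animals, the tables were normalized apart, and no treated wild-type group is among the samples. Each library is RNA from 1 hippocampus, given as the left in the labels and as the right in the study's methods, and in such bulk RNA fewer cells of a type and less RNA per cell cannot be told apart.

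Oxidative phosphorylation takes place in the inner mitochondrial membrane. Complex I oxidises NADH and complex II, succinate dehydrogenase, oxidises succinate. Both pass electrons through ubiquinone to complex III, then through cytochrome c to complex IV, which reduces oxygen. Complexes I, III and IV pump protons, and complex V, the ATP synthase, uses the gradient to make ATP. A few subunits are encoded by mitochondrial DNA and the others by the nucleus, so that assembly needs both genomes, and firing and synaptic transmission in the hippocampus depend on the ATP made. Diazoxide opens ATP-sensitive potassium channels, the mitochondrial one included, and is also known as an inhibitor of succinate dehydrogenase. The 13 mitochondrial DNA subunits have no row in either table and were not analysed here.

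Total counts were 5848460 to 9926090 per rat in the genotype table and 9215040 to 14175600 in the treatment table, so that 1 read was worth 0.0706 to 0.171 RPM, the unit of the deposited reads scaled to sequencing depth. The App row, which takes in the reads of the APPsw transgene, averaged 1101 RPM in WTNT (SD 47.5, n = 5) against 2187 RPM in TGNT rats (SD 122, n = 5), and in the treatment table it averaged 2478 RPM in TGNT (SD 179, n = 4) against 2532 RPM in TGTR rats (SD 163, n = 6). Neuronal markers were higher in TGNT for 2 of 10 (median log2 fold change -0.041) and higher in TGTR for 1 of 10 (median -0.044). They summed to 11175.5 to 12332 RPM in WTNT against 10810 to 12040 RPM in TGNT. In the treatment table they summed to 9204 to 10905 RPM in TGNT against 8421 to 10214 RPM in TGTR. Choroid plexus markers summed to 3062 RPM in TGTR 5 and 153 RPM in TGTR 6, against 10.0 to 12.9 RPM in the other 4 TGTR rats and 11.8 to 24.8 RPM in TGNT, with none of the 13 markers at 0 in every rat. Blood markers summed to 1744 RPM in TGTR 4, against 207 to 322 RPM in TGNT. Oligodendrocyte markers were lower in TGNT than in WTNT rats for 8 of 8 (median log2 fold change -0.21), 2 of them at an unadjusted edgeR p under 0.05. They were higher in TGTR than in TGNT rats for 8 of 8 (median 0.22), with 0 at that limit. These markers spanned 4603 to 10447 RPM in WTNT against 4352 to 7891 RPM in TGNT. In the treatment table they spanned 4206 to 6696 RPM in TGNT against 4956 to 7577 RPM in TGTR. In the genotype comparison, microglial markers leaned to TGNT for 8 of 8 genes (median log2 fold change 0.092, no unadjusted p under 0.05) and in the treatment comparison to TGTR for 2 of 8 (median -0.020). Markers of hippocampal principal cells were higher in TGNT for 0 of 8 (median -0.15) and higher in TGTR for 1 of 8 (median -0.11), and spanned 1108 to 1777 RPM in the genotype table and 923 to 1654 RPM in the treatment table. Endothelial markers were higher in TGNT for 3 of 6 (median 0.019) and higher in TGTR for 6 of 6 (median 0.19), 3 of them at an unadjusted p under 0.05, and spanned 222 to 245 RPM in TGNT against 226 to 343 RPM in TGTR. Astrocyte markers were higher in TGNT for 3 of 7 and in TGTR for 0 of 7 (medians -0.0027 and -0.048). The part of these markers in the results on oxidative phosphorylation genes was not tested, beyond leaving out libraries.

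The promoters of many of these genes hold sites for shared regulators, among them nuclear respiratory factor 1 (NRF-1), ETS factors such as GABP, and YY1. RefSeq promoters of build GRCr8, each with 250 bases before and 50 after the start, were matched for 75 of the 88 members, 60 by symbol and 15 by an older name. Letters were searched on both strands. The NRF-1 core GCGCANGCG was found in 20 of the 75 promoters (26.7%) and in 5.8% of all 33469 promoters of that length. The ETS core CCGGAAG was found in 21 (28%), against 8.75% of all, and the YY1 core AAGATGGCG in 10 (13.3%), against 1.73% of all. At least 1 of the 3 cores was present in 43 of the 75 promoters (57.3%), against 14.5% of all. These are matches of letters, read as a description. The background took in all RefSeq promoters of that length and was not limited to genes with reads in these rats. Whether other genes expressed here hold the cores as often was not tested. The NRF-1 core nearly mirrors itself, so some of its matches on the 2 strands overlap, while matches of different cores did not overlap in the members' promoters.

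The 150 bases before the start are printed for 5 members that the comparisons return to: Ndufa11 and Ndufv3, which had the lowest complex I p-values of the higher genes in the genotype comparison, Sdha and Sdhb, the catalytic subunits of the enzyme that diazoxide inhibits, and Atp5i, which lay just over the p limit in the treatment comparison. Each is given 5′ to 3′ on the strand of the gene, with the letters of a core in capitals. They lie at chr9:1637464-1637613 for Ndufa11, chr20:9613636-9613785 for Ndufv3, chr1:30764403-30764552 for Sdha, chr5:158547784-158547933 for Sdhb and chr14:1464710-1464859 for Atp5i, whose RefSeq name is Atp5me, all on the plus strand. The single capital that ends the Sdha line opens a match that runs on past the start. All 5 printed lines hold a core, which does not hold for every member named in the comparisons. Ndufa7 and Ndufab1, under the unadjusted p limit for genotype and for treatment, have promoters without a core. In Atp5l, also under that limit for treatment, the cores lie farther from the start than the 150 bases.
Ndufa11: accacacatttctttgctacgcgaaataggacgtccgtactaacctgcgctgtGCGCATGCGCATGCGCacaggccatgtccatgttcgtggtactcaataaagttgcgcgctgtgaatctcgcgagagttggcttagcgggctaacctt
Ndufv3: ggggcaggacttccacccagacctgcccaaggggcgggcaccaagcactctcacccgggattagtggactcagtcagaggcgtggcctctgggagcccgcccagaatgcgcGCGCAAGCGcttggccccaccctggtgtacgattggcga
Sdha: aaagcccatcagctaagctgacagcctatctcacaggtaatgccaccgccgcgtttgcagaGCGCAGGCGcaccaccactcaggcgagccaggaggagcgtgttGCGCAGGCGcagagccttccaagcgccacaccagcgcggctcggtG
Sdhb: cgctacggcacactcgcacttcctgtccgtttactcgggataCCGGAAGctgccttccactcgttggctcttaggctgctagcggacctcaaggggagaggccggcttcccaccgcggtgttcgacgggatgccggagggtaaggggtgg
Atp5i: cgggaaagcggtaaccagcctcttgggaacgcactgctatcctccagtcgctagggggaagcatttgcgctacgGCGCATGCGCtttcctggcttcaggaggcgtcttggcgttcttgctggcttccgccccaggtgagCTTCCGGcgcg
The Ndufa11 line holds overlapping NRF-1 cores in 1 run, the Sdha line holds separate ones, and the Atp5i line holds an NRF-1 core and, nearer the start, an ETS core read on the other strand. In the genotype comparison the 43 counted members with a core had a median log2 fold change of 0.071, with 38 higher in TGNT, and the 28 members with a promoter but no core had a median of 0.053, with 17 higher. In the treatment comparison the medians were -0.039, with 16 of 43 higher in TGTR, and -0.0017, with 13 of 28 higher. The difference between members with and without a core was not tested.

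Across rats, the mean level of the members as a whole varied little. Over the 82 members counted in both tables, the mean log2(RPM + 1) was 5.92, 5.89, 5.93, 5.83 and 5.91 in the 5 WTNT rats and 5.93, 5.93, 5.93, 5.93 and 5.97 in the 5 TGNT rats of the genotype table. WTNT 4 was the lowest, and the groups overlapped. In the treatment table the same mean ran from 5.99 to 6.08 with a median of 6.04 in the 4 TGNT rats, and from 5.95 to 6.06 with a median of 6.02 in the 6 TGTR rats. These groups overlapped as well. The SD of this mean was 0.042 in WTNT and 0.018 in TGNT rats, then 0.035 in TGNT and 0.040 in TGTR rats. For cytosolic ribosomal protein genes it was 0.042 and 0.061, then 0.026 and 0.054, so a small spread was not particular to the members. The counted members together took 0.708 to 0.787% of all counts in WTNT, 0.769 to 0.794% in TGNT of the genotype table, 0.746 to 0.808% in TGNT of the treatment table and 0.759 to 0.818% in TGTR rats.

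**Figure D1:**
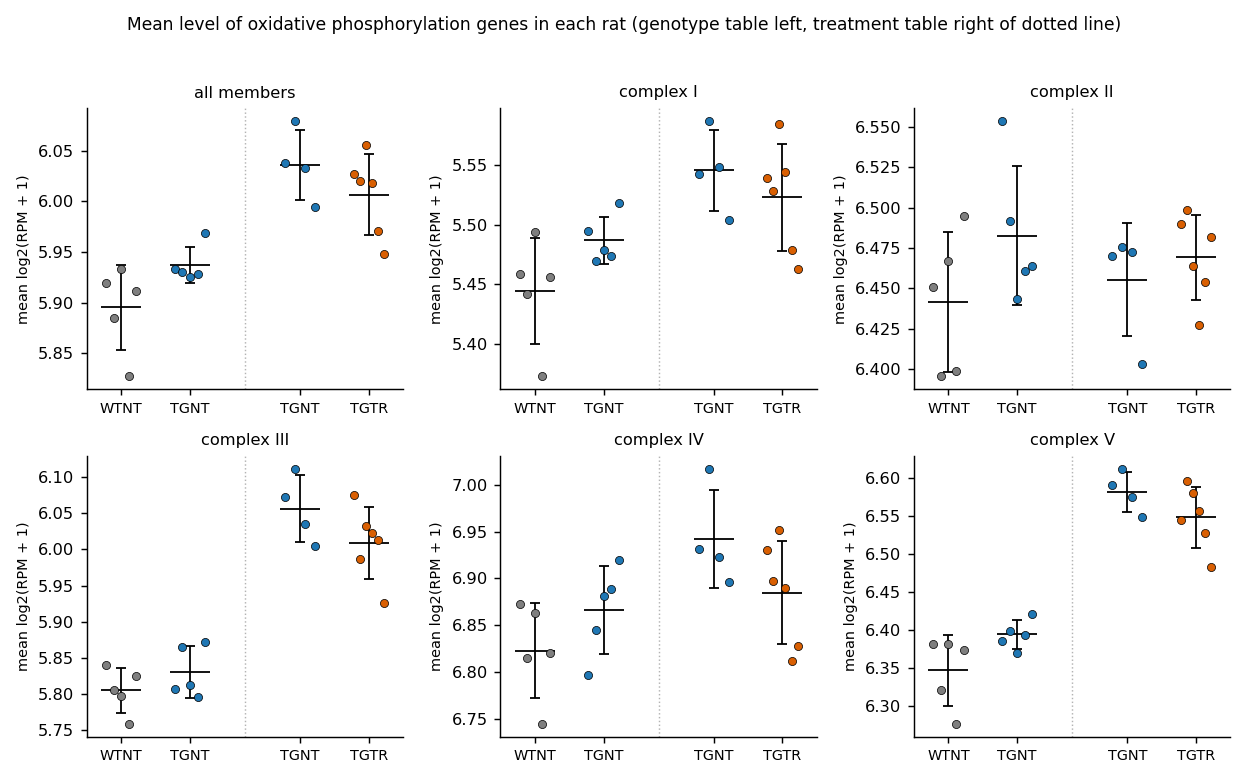
Mean log2(RPM + 1) of the 82 members counted in both tables, for all members and for each complex, with 1 point per rat and the group mean with SD (y axis, which does not start at 0; x axis, the 4 groups). WTNT and TGNT rats of the genotype table overlap in each panel, TGNT and TGTR rats of the treatment table do too, and levels on the 2 sides of the dotted line were normalized apart.

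Each complex showed the same overlap between groups on this scale. Complex I, 42 members, ran from 5.37 to 5.49 in WTNT and from 5.47 to 5.52 in TGNT, and from 5.50 to 5.59 in TGNT and 5.46 to 5.58 in TGTR of the treatment table. Complex II, 5 members, ran from 6.396 to 6.49 in WTNT and 6.44 to 6.55 in TGNT, and from 6.403 to 6.48 in TGNT and 6.43 to 6.50 in TGTR. Complex V, 17 members, ran from 6.28 to 6.38 in WTNT and 6.37 to 6.42 in TGNT, and from 6.55 to 6.61 in TGNT and 6.48 to 6.60 in TGTR. Within groups the median coefficient of variation of a counted member was 7.53% in WTNT and 8.38% in TGNT rats of the genotype table. It was 5.44% in TGNT and 5.83% in TGTR rats of the treatment table. These values were not set beside those of other genes.

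TGNT rats were compared with WTNT rats to ask whether the transgenes alone went with a change in these genes at this early age. No member passed the adjusted threshold (edgeR's quasi-likelihood test, Benjamini-Hochberg adjusted p under 0.05 and at least 1.5-fold), while 0.0116% of all 17168 genes did, and limma and DESeq2 called no member either. Of the 82 counted members, 65 were higher and 17 lower in TGNT by fitted log2 fold change, with a median of 0.061, against 52.4% higher and a median of 0.0063 over all 11357 counted genes. Over the 70 counted subunits alone, 55 were higher and 15 lower, with a median of 0.057. At an unadjusted p under 0.05, 2 members were higher (2.44%, background 1.99%) and 1 was lower (1.22%, background 1.9%), so both shares lay near those of all genes. No member had groups that did not overlap in RPM, where 0.335% of counted genes were higher and 0.317% were lower without overlap. The count of higher members was 6 without WTNT 3, 6 without TGNT 1, 7 without TGNT 2, 1 without WTNT 2 or WTNT 4 and 1 without TGNT 4 or TGNT 5. The count of lower members fell to 0 without any 1 of WTNT 1 to 4 or TGNT 1 to 3.

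Complex I had the largest number of members and the largest single difference. Of its 42 counted members 33 were higher in TGNT, with a median log2 fold change of 0.064. Ndufa11, an accessory subunit of the membrane arm, was at 14.4, 14.5, 18.6, 14.7 and 15.1 RPM in the WTNT rats and at 18.9, 21.3, 18.5, 20.7 and 20.1 RPM in the TGNT rats. WTNT 3 lay among the TGNT rats, and the other 4 WTNT rats lay below all of them. The log2 fold change was 0.36 (SE 0.10, 95% interval 0.15 to 0.58), from a mean of 15.5 RPM (SD 1.79, n = 5) to 19.9 RPM (SD 1.18, n = 5), with an unadjusted p of 0.00245, an adjusted p of 1 in edgeR and p = 0.0159 in the exact two-sided permutation test of the RPM, whose smallest possible p is 0.00794.

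The other complex I members near the unadjusted limit went in both directions. Ndufv3, an accessory subunit of the NADH-oxidising module, was at 35.3, 33.1, 31.6, 34.1 and 34.1 RPM in WTNT and 39.2, 32.7, 40.2, 36.4 and 39.0 RPM in TGNT. Its log2 fold change was 0.17 (SE 0.074, unadjusted p = 0.0409, adjusted p = 1, exact permutation p = 0.0556), with TGNT 2 inside the WTNT range. Ndufa7, an accessory subunit of the peripheral arm, was at 16.4, 16.8, 16.4, 18.3 and 15.5 RPM in WTNT and 14.7, 11.9, 12.8, 14.5 and 16.4 RPM in TGNT. It was the only counted member lower at an unadjusted p under 0.05, with a log2 fold change of -0.23 (SE 0.11, p = 0.0463, adjusted p = 1, exact permutation p = 0.0317), and TGNT 5 lay inside the WTNT range. Ndufs7, a core subunit with an iron-sulfur cluster beside the quinone site, had a log2 fold change of -0.19 (unadjusted p = 0.121), and is named here after its value was seen.

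Groups within complex I were also counted. Of the 11 Ndufs and Ndufv subunits, which include those that hold the redox cofactors, 9 were higher in TGNT, with a median of 0.056. Of the 10 Ndufb subunits of the membrane arm 7 were higher, with a median of 0.078. Of the 12 Ndufa accessory subunits, Ndufab1 included, 10 were higher, with a median of 0.073. Of the 6 Ndufaf assembly factors 5 were higher, with a median of 0.036 and no unadjusted p under 0.05. Over the 34 complex I subunits alone, 27 were higher, with a median of 0.069.

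**Figure D2:**
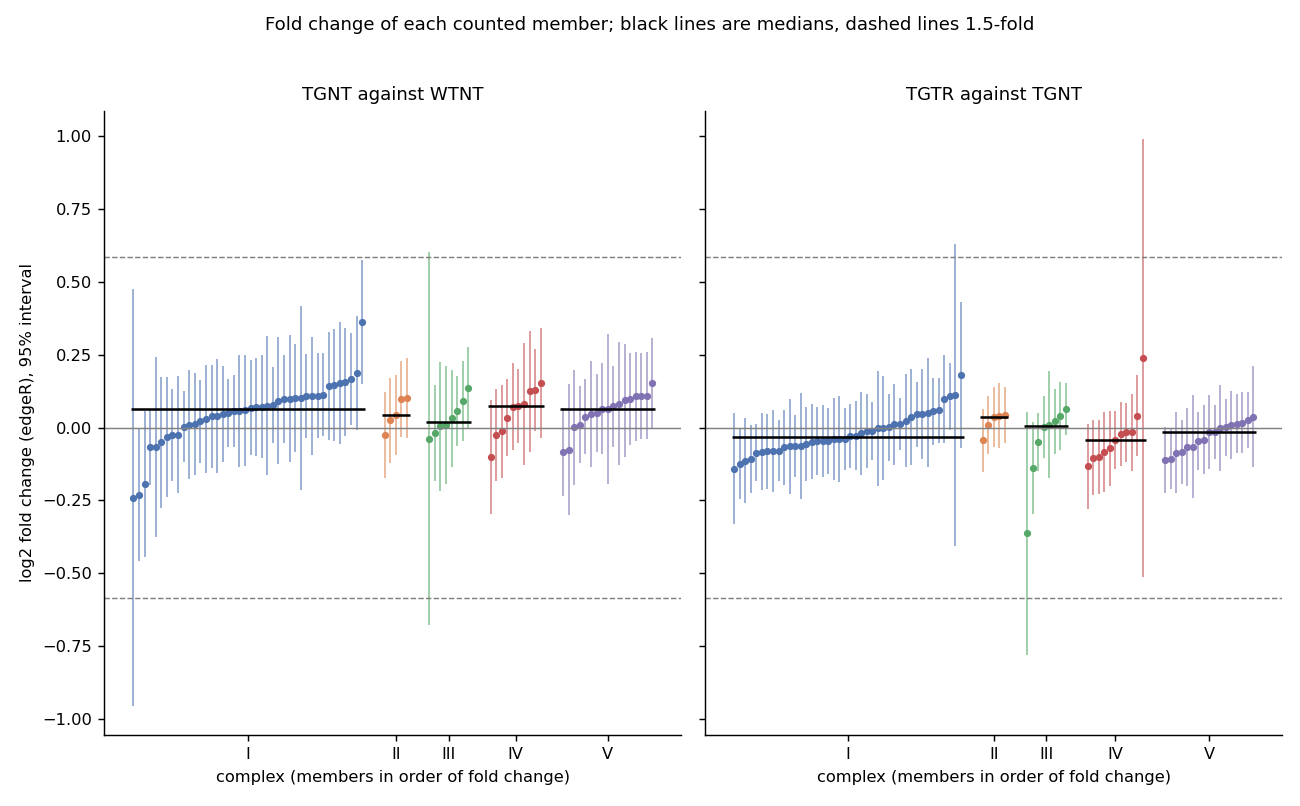
Log2 fold change of each counted member by complex (x axis, members ordered by fold change within complexes I to V; y axis, log2 fold change with its 95% interval from edgeR), for TGNT against WTNT and for TGTR against TGNT. Medians (black lines) lie above 0 in each complex on the left, and 80 of 82 and 80 of 83 intervals stay within 1.5-fold (dashed lines).

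In complex II, 4 of 5 members were higher in TGNT, the median log2 fold change was 0.043 and there was no unadjusted p under 0.05. Sdha, the flavoprotein that oxidises succinate, was at 256, 246, 273, 232 and 275 RPM in WTNT and at 287, 275, 258, 242 and 237 RPM in TGNT. The groups covered nearly the same range, and the log2 fold change was 0.025 (95% interval -0.12 to 0.17). Sdhb, the iron-sulfur subunit, averaged 66.2 RPM (SD 3.23, n = 5) in WTNT against 70.5 RPM (SD 3.02, n = 5) in TGNT, which gave a log2 fold change of 0.097 (SE 0.061, unadjusted p = 0.134, exact permutation p = 0.0794). The membrane anchors did not share a sign: Sdhc had a log2 fold change of -0.026 and Sdhd of 0.043, with SEs of 0.069 and 0.064. Sdhaf2, which helps attach the flavin to Sdha, had a log2 fold change of 0.10 (unadjusted p = 0.136).

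In complex III, 6 of 8 members were higher in TGNT, with a median log2 fold change of 0.019. Uqcrh, the hinge protein near cytochrome c1, was at 100.3, 105.5, 111.4, 96.1 and 106.3 RPM in WTNT and 105.1, 107.2, 118.1, 113.2 and 125.3 RPM in TGNT. The highest rat was TGNT 5 and the lowest WTNT 4, and the groups overlapped (log2 fold change 0.14, SE 0.066, unadjusted p = 0.0564, exact permutation p = 0.0556). Uqcrc2, a core protein, had a log2 fold change of 0.091 (unadjusted p = 0.179), and Uqcrfs1, the Rieske iron-sulfur protein, of 0.057 (unadjusted p = 0.327). Uqcr10 had only 8 to 24 reads per rat in this table, and its 95% interval of -0.68 to 0.60 allows a change of over 1.5-fold either way.

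In complex IV, 7 of 10 counted members were higher in TGNT, with a median of 0.073, and in complex V 15 of 17, with a median of 0.065. Cox6a1, the broadly expressed isoform of subunit 6a, averaged 164.8 RPM in WTNT (SD 12.05, n = 5) against 179 RPM in TGNT (SD 10.9, n = 5) (log2 fold change 0.13, SE 0.066, unadjusted p = 0.0711). Cox5a had a log2 fold change of 0.15 (unadjusted p = 0.107) and Cox7a2 of 0.12 (unadjusted p = 0.221). Atp5f1, the b subunit of the peripheral stalk, was at 173, 175, 188, 169 and 198 RPM in WTNT and 185, 176, 208, 217 and 213 RPM in TGNT, with 3 TGNT rats above all WTNT rats. Its log2 fold change was 0.15 (SE 0.072, an unadjusted p just over the limit of 0.05, exact permutation p = 0.0873). Atp5l, subunit g, and Atp5o, the OSCP that joins the stalk to the catalytic head, both had a log2 fold change of 0.11 (unadjusted p = 0.138 and 0.141). The catalytic subunits Atp5a1 and Atp5b had log2 fold changes of 0.037 and 0.010 (SE 0.060 and 0.061).

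TGTR rats were compared with TGNT rats of the same table to ask whether DZ/DIB-treatment went with a change in these genes. No member passed the adjusted threshold in edgeR, limma or DESeq2, and 0% of all 17168 genes did so in edgeR. Of the 83 counted members, 31 were higher and 52 lower in TGTR by fitted log2 fold change, with a median of -0.022, against 50.1% higher and a median of 0.00025 over all 12029 counted genes. Over the 71 counted subunits alone, 23 were higher and 48 lower, with a median of -0.039. At an unadjusted p under 0.05, 0 members were higher (background 3.9%) and 2 were lower (2.41%, background 2.24%). No member had groups without overlap, where 0.806% of counted genes were higher and 0.648% lower. The count of lower members was 5 without TGNT 1, 0 without TGNT 2, 1 without TGNT 3, 4 without TGNT 4, 4 without TGTR 1 and 1 without TGTR 6. It was 3 without TGTR 5, the library highest in choroid plexus markers, and 2 without TGTR 4, the library highest in blood markers. The count of higher members was 1 without TGTR 6, in which choroid plexus markers were also raised. With TGTR 5 and 6 both left out, a setting chosen after seeing the data, 0 members were lower and 1, Ndufc2, was higher at an unadjusted p under 0.05, and the medians of complexes I to V were -0.0041, 0.017, 0.0098, -0.020 and -0.015.

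Of the 42 counted complex I members 28 were lower in TGTR, with a median log2 fold change of -0.034. By share more were lower in complex IV, 9 of 11, with a median of -0.044. The complex I median was -0.015 without TGTR 5, and across all alternatives it ran from -0.054 to 0.0024. Ndufab1, the mitochondrial acyl carrier protein, was at 35.2, 40.5, 36.1 and 40.7 RPM in TGNT, and in the 6 TGTR rats its lowest value was 33.1, its median 34.9 and its highest 36.8 RPM. Of the TGTR rats 4 lay below every TGNT rat. The log2 fold change was -0.12 (SE 0.056, 95% interval -0.25 to -0.0020), with an unadjusted p of 0.0469, an adjusted p of 0.990 in edgeR and p = 0.0333 in the exact permutation test, whose smallest possible p in this table is 0.00476.

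Other complex I members leaned in both directions without passing the unadjusted limit. Ndufc2, an accessory subunit of the membrane arm, was at 56.3, 56.2, 55.2 and 52.8 RPM in TGNT and between 53.3 and 63.8 RPM, with a median of 60.1, in TGTR. Its log2 fold change was 0.11 (SE 0.053, unadjusted p = 0.0649), and 5 of 6 TGTR rats lay above all TGNT rats. Ndufa10l1 had a log2 fold change of -0.11 (unadjusted p = 0.0673). All 12 Ndufa accessory subunits had a negative sign in TGTR, with a median of -0.066, and 8 of the 10 Ndufb subunits did, with a median of -0.043. Of the 11 Ndufs and Ndufv subunits 6 were lower, with a median of -0.011, and of the 6 Ndufaf assembly factors 1 was lower, with a median of 0.041. Over the 34 complex I subunits alone, 26 were lower, with a median of -0.045. No test of these groups was made. Ndufa11, which had the lowest p in the genotype comparison, averaged 47.5 RPM in TGNT (SD 3.54, n = 4) against 45.2 RPM in TGTR (SD 2.41, n = 6) (log2 fold change -0.068, unadjusted p = 0.272).

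**Figure D3:**
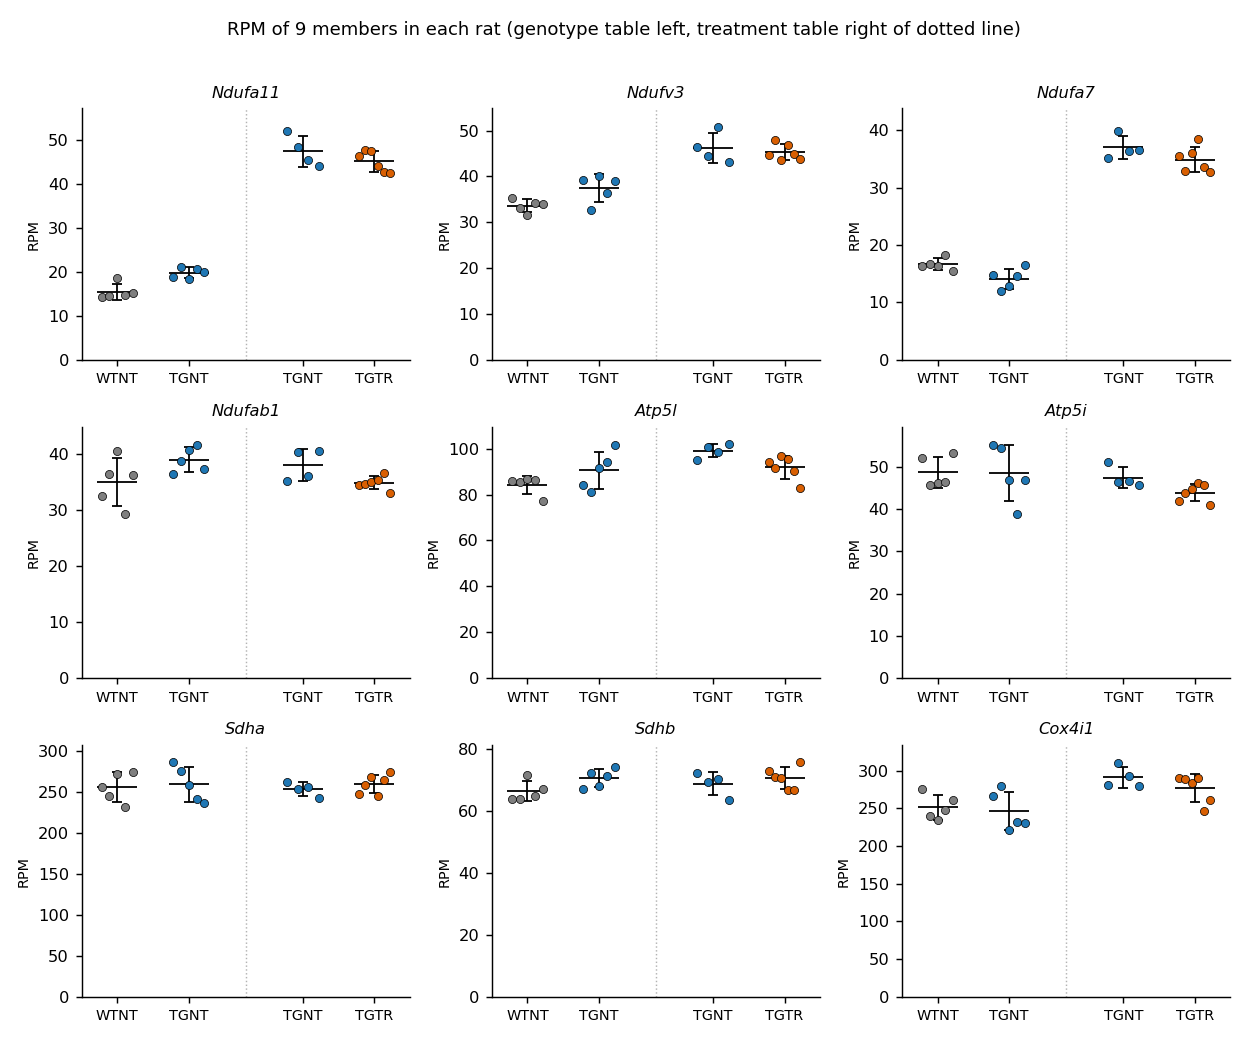
RPM of 9 members in each rat (y axis from 0; 1 point per rat, with group mean and SD; x axis, the 4 groups, with the 2 tables on either side of the dotted line). Ndufa11 and Ndufa7 lie higher in the treatment table than in the genotype table in every rat, and for each gene the groups of a table overlap.

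Succinate dehydrogenase, the enzyme known to be inhibited by diazoxide, showed small differences with DZ/DIB-treatment. Sdha was at 262, 254, 257 and 242 RPM in TGNT and between 246 and 274 RPM, with a median of 262, in TGTR. The log2 fold change was 0.036 (SE 0.048, 95% interval -0.068 to 0.14). Sdhb had a log2 fold change of 0.041 (95% interval -0.072 to 0.15), Sdhc of -0.044 (95% interval -0.15 to 0.064), Sdhd of 0.0090 (95% interval -0.091 to 0.11) and Sdhaf2 of 0.043 (95% interval -0.054 to 0.14). Each interval holds 0 and lies within 1.5-fold, and the median over the 5 members was 0.036. Without TGNT 4, whose complex II level was the lowest of its group, that median was 0.0026.

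In complex III, 3 of 8 members were lower in TGTR, and the median of 0.0059 turned to -0.028 without TGTR 1 and to 0.030 without TGNT 2. Uqcr10, a small subunit, had the lowest fold change of all counted members. It was at 4.99, 4.03, 4.81 and 3.86 RPM in TGNT and between 2.33 and 4.44 RPM, with a median of 3.66, in TGTR (log2 fold change -0.36, SE 0.19, 95% interval -0.78 to 0.053, unadjusted p = 0.0818), on 32 to 64 reads per rat. Uqcr11, another small subunit, averaged 144 RPM in TGNT (SD 13.2, n = 4) against 130 RPM in TGTR (SD 10.8, n = 6), which gave a log2 fold change of -0.14 (unadjusted p = 0.0825), and it was lowest in TGTR 5. Uqcrfs1 had a log2 fold change of 0.064 (unadjusted p = 0.147).

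In complex IV, 9 of 11 counted members were lower in TGTR, with a median of -0.044. Cox7c, a small subunit, was at 74.9, 90.0, 80.7 and 74.1 RPM in TGNT and between 65.5 and 79.0 RPM, with a median of 72.3, in TGTR. The groups overlapped (log2 fold change -0.13, SE 0.068, unadjusted p = 0.0717). Cox7a2 and Cox5b both had a log2 fold change of -0.10 (SE 0.058 and 0.060, unadjusted p = 0.108 and 0.110). In complex V, 11 of 17 members were lower, with a median of -0.016. Atp5l was at 95.2, 100.8, 98.5 and 101.8 RPM in TGNT and between 82.8 and 96.9 RPM, with a median of 92.8, in TGTR, and 4 TGTR rats lay below all TGNT rats. Its log2 fold change was -0.11 (SE 0.049, 95% interval -0.21 to -0.0016, unadjusted p = 0.0471, adjusted p = 0.990, exact permutation p = 0.0286). Atp5i, subunit e, which pairs with subunit g in the membrane part, was at 51.1, 46.4, 46.7 and 45.7 RPM in TGNT and between 41.1 and 46.1 RPM, with a median of 44.3, in TGTR (log2 fold change -0.11, SE 0.052, unadjusted p = 0.0528, exact permutation p = 0.0286). Atp5h, subunit d of the stalk, had a log2 fold change of -0.084 (unadjusted p = 0.120), and Atp5a1 and Atp5b of 0.026 and 0.013.

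Several complex IV subunits exist as tissue isoforms. The broadly expressed Cox4i1, Cox6a1 and Cox8a had more reads than Cox4i2, Cox6a2 and Cox8b, with no correction for length. Cox6b1 and Cox7a1 have no row in either table, so Cox6b2 and Cox7a2 could not be set beside them. Cox4i1, the broadly expressed form, averaged 252 RPM in WTNT (SD 16.7, n = 5) against 246 RPM in TGNT (SD 25.6, n = 5), and in the treatment table it averaged 291 RPM in TGNT (SD 14.1, n = 4) against 277 RPM in TGTR (SD 18.7, n = 6). Cox4i2, known from lung and from the response to low oxygen, had 2 to 12 reads per rat in the genotype table and 5 to 26 in the treatment table. The muscle forms Cox6a2 and Cox8b and the testis form Cox6b2 stayed under the mean of 10 reads in both tables. Cox6a2 had 0 to 4 reads per rat in the genotype table, and in the treatment table it had 0 to 1 reads in TGNT and 0 to 7 in TGTR, at 0, 0.0857, 0 and 0.0920 RPM in TGNT and 0.214, 0.353, 0.242, 0, 0.202 and 0.568 RPM in TGTR. No fold is given for so few reads. Its unadjusted edgeR p was 0.0233, its adjusted p 0.964 and its exact permutation p 0.0476.

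Ndufa4, which carries a complex I symbol though its protein is counted with complex IV, had a log2 fold change of 0.11 in the genotype comparison (SE 0.068) and of -0.041 in the treatment comparison (SE 0.065). Its relative Ndufa4l2 had 5 to 21 reads per rat in the genotype table and 16 to 32 in the treatment table, with log2 fold changes of -0.24 and 0.11 and SEs of 0.34 and 0.24. The genes Atp5g1, Atp5g2 and Atp5g3 encode the same mature c subunit of the ATP synthase ring with different import sequences. Their log2 fold changes were -0.076, 0.064 and 0.098 in the genotype comparison and -0.0017, -0.042 and 0.0097 in the treatment comparison, and the lowest unadjusted p among them was 0.207. The estimated counts of Ndufa10 and Ndufa10l1 were not whole numbers in any of the 10 rats of either table, so their counts are uncertain, and with which genes their reads were divided was not tested. In part of the rats the same held for Cox7a2, Cox7b, Ndufa2 and Ndufab1.

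The 2 comparisons share no rats, and the members' signs can be set side by side. Of the 82 members counted in both, 39 were higher in TGNT than in WTNT and lower in TGTR than in TGNT, which is 47.6% against 25.6% of the 11343 genes counted in both. Another 26 members were higher in both (31.7% against 26.8%), 13 were lower in both (15.9% against 24.4%), and 4 were lower in TGNT and higher in TGTR (4.88% against 23.2%). Of the 82, 65 were higher in TGNT and 52 lower in TGTR, and these shares multiplied give 41.2 members, so 39 is not above what the lean of each comparison gives. The values for single members are small on both sides: Ndufab1 had 0.16 and -0.12, Atp5l 0.11 and -0.11, Uqcrh 0.14 and 0.040, and Ndufa7 -0.23 and -0.083. The 93 cytosolic ribosomal protein genes with reads, also short and abundant transcripts, had 74 of 89 counted members higher in TGNT (median 0.064) and 20 of 91 higher in TGTR (median -0.049). Whether the oxidative phosphorylation genes leaned more than these was not tested.

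**Figure D4:**
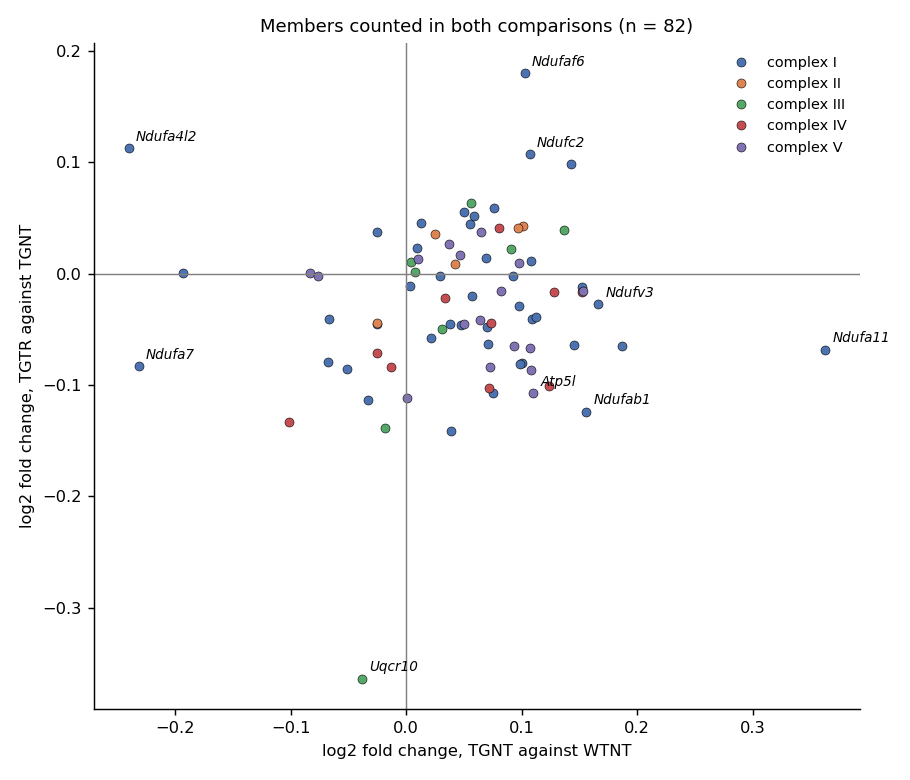
Log2 fold change of the 82 members counted in both comparisons (x axis, TGNT against WTNT; y axis, TGTR against TGNT; colours, complexes I to V). The lower right part holds 39 members and the upper left 4, with Ndufa11 at 0.36 and -0.068 and Uqcr10 at -0.038 and -0.36.

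Other genes of the pathway were read from lists outside the symbol rule. Of 11 counted electron carriers and transporters, 10 were higher in TGNT (median 0.059) and 5 were higher in TGTR (median -0.0077), with no unadjusted p under 0.05 in either. The lowest p belonged to Higd2a (log2 fold change 0.20, unadjusted p = 0.129) and Vdac3 (0.087, unadjusted p = 0.136) for genotype and to Higd2a (-0.22, unadjusted p = 0.0817) and Vdac1 (-0.067, unadjusted p = 0.122) for treatment in edgeR. Of 30 assembly factors outside the rule, 21 were higher in TGNT (median 0.026), and 1 of them, Cox20, which helps insert a mitochondrial subunit of complex IV, had an unadjusted p of 0.0313 (log2 fold change 0.31), followed by Cox15 (-0.12, unadjusted p = 0.125). In TGTR 17 of the 30 were higher (median 0.0070), and Cox11, which delivers copper to complex IV, had a log2 fold change of 0.14 (unadjusted p = 0.0535), followed by Coa3 (-0.12, unadjusted p = 0.0813). Of 18 genes of the TCA cycle and pyruvate dehydrogenase, 10 were higher in TGNT (median 0.025) and 8 in TGTR (median -0.017), with no unadjusted p under 0.05. The lowest were those of Idh3g (log2 fold change 0.12, unadjusted p = 0.0745) and Pc (-0.14, unadjusted p = 0.0872) for genotype, and Fh (-0.077, unadjusted p = 0.226) and Sucla2 (0.057, unadjusted p = 0.280) for treatment. Of 16 regulators of mitochondrial biogenesis, 7 were higher in TGNT (median -0.0025) and 6 in TGTR (median -0.015). Among them Esrra, a nuclear receptor that acts with the PGC-1 coactivators on these genes, averaged 17.5 RPM in WTNT (SD 2.80, n = 5) against 13.8 RPM in TGNT (SD 3.30, n = 5) (log2 fold change -0.33, unadjusted p = 0.0477, adjusted p = 1). Pprc1, a coactivator of the PGC-1 family, came next (-0.11, unadjusted p = 0.192), and for treatment Pprc1 (-0.11, unadjusted p = 0.124) and Sirt3 (-0.066, unadjusted p = 0.254) had the lowest p. No gene of these lists passed the adjusted threshold.

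The intervals set what these data can show. The median SE of a counted member's log2 fold change was 0.079 in the genotype and 0.057 in the treatment comparison. Of the counted members, 56 of 82 and 68 of 83 had a log2 fold change between -0.1 and 0.1. The 95% interval lay within 1.5-fold in either direction for 80 of 82 members in the genotype comparison, the exceptions being Ndufa4l2 and Uqcr10, and for 80 of 83 in the treatment comparison, the exceptions being Ndufa4l2, Uqcr10 and Cox4i2. Differences smaller than these intervals were not detectable at this depth and number of rats.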

How the data were processed

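Per the labels, strand-specific mRNA libraries (KAPA kit) were made from hippocampal RNA of 20 female rats, and the submitters' processing notes name bcl2fastq 2.17, Bowtie2 2.1.0, RSEM 1.2.15, edgeR and the rat build rn6. The authors deposited RSEM estimated counts per gene and, for the same rats, an RPM signal, the reads scaled to depth with TMM factors, with 1 pair of files for each comparison; their roles beyond this are not given in the sources used here. The estimated counts were rounded before testing, and every gene of a table was tested with edgeR 4.0.16 (R 4.3.3; quasi-likelihood test, TMM factors, Benjamini-Hochberg adjustment), each table by itself. A call needed an adjusted p under 0.05 and a change of at least 1.5-fold. Intervals are 95% intervals from the same fit. Single members were also tested with an exact two-sided permutation test of the deposited RPM signal. DESeq2 1.42.0, limma 3.58.1, other scaling factors and filters, a replicate block and leaving out each rat were alternatives, and leaving out TGTR 5 and 6 together was added after seeing the data. The code was tested on simulated data.

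Total counts set the precision: 5848460 to 9926090 per rat in the genotype table and 9215040 to 14175600 in the treatment table. Intervals cover the spread between rats as well as counting error. Promoter sequences are RefSeq's (build GRCr8), while the counts rest on rn6, so no position was carried from one to the other. The named members were, in each complex, the 3 of lowest unadjusted p, the 4 Sdh subunits, the members of highest and lowest fold change, and the isoform pairs; a further part of the rule, the highest RPM per coding length, could not be applied without coding lengths, so levels are not compared between genes. For each other list of the pathway, the 2 genes of lowest p are named, and marker lists are given as sums and counts. The members and lists were chosen with earlier results of these data known. Some listed symbols of the families have no row in these tables and were not analysed here. Replicate numbers come from the sample titles. They did not pair the rats: the correlation of same-numbered rats ran from -0.21 to 0.34 in the genotype table and from -0.58 to 0.14 in the treatment table.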

Additional observations from a re-analysis of the deposited data

Results flagged for a closer look

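Single rats stood far from the rest of their group for some members, by the gap to the nearest rat as a share of the group's range. The check was made in 68 groups of rats of the genotype table and 70 of the treatment table, and picked 6 and 5 of them. By chance about 1 group in 20 is picked. In WTNT rats, Ndufa11 was high in WTNT 3 at 18.6 RPM (the next rat at 15.1), Sdhd was high in WTNT 5 at 84.0 RPM (next 73.2), and Atp5l was low in WTNT 5 at 77.1 RPM (next 85.5). In TGNT rats of the genotype table, Sdhc was high in TGNT 1 at 72.5 RPM (next 64.9), Cox6a2 was high in TGNT 2 at 0.603 RPM (next 0.133), on at most 4 reads, and the mean log2(RPM + 1) of all members was high in TGNT 5 at 5.97 (next 5.93). In the treatment table, Cox6a1 was high in TGNT 2 at 209.5 RPM (next 183) and low in TGTR 5 at 164.7 RPM (next 184). Cox8b was high in TGNT 2 at 0.428 RPM (next 0.184) and in TGTR 5 at 0.808 RPM (next 0.243), on at most 8 reads. The mean log2(RPM + 1) of the complex II members was low in TGNT 4 at 6.403 (next 6.470). TGTR 5 is also the library with the most choroid plexus markers (3062 RPM, with 153 RPM in TGTR 6), and the part of these markers in its values was not tested.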

How the results depend on the processing

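No member was called in either comparison under any alternative run. The genotype medians of the 5 complexes stayed above 0 under every alternative, and Ndufa11 kept its direction, with unadjusted p between 0.000491 and 0.00853 and no adjusted p under 0.634. Counts at an unadjusted p under 0.05 moved. Higher members in the genotype comparison (2) numbered 1 with RLE factors, 1 in DESeq2 and 4 in limma on log2(RPM + 1), and lower members (1) numbered 0 with library size only, 0 in DESeq2 and 0 with the replicate block. Lower members in the treatment comparison (2) numbered 4 with upper quartile factors, 0 with library size only, 0 in the likelihood ratio test, 1 in DESeq2 and 4 in limma with either pseudocount (1 or 0.1), and higher members (0) numbered 2 with library size only. With library size only, the treatment medians were 0.074 for complex II and 0.020, a change of sign, for complex V. Cox6a1 and Atp5g1 turned to 0.020 and 0.035 in that setting. Across all alternatives the treatment median of complex I ran from -0.054 to 0.0024, so it did not keep its sign either. The replicate block, which leaves TGTR 5 and 6 without a partner, gave 1 higher and 0 lower members in the treatment comparison and turned Cox6a1 to 0.018, Ndufa4 to 0.030 and Atp5g1 to 0.074. With TGTR 5 and 6 both left out, a setting chosen after seeing the data, higher members numbered 1 and lower members 0, and Cox6a1 turned to 0.013, Ndufa4 to 0.026 and Atp5g1 to 0.069. The block changed no adjusted call, and as rats share only a number this is given as a value.

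Leaving out each rat in turn gave 1 to 7 higher and 0 to 1 lower members in the genotype comparison and 0 to 1 higher and 0 to 5 lower members in the treatment comparison. Genotype medians ran from 0.030 to 0.078 for complex I, 0.017 to 0.087 for II, 0.0070 to 0.056 for III, 0.035 to 0.089 for IV and 0.042 to 0.080 for V. Treatment medians ran from -0.054 to -0.015 for I, 0.0026 to 0.043 for II, -0.028 to 0.030 for III, -0.066 to -0.033 for IV and -0.039 to -0.0085 for V. Fold changes near 0 crossed it: in the genotype comparison Sdha ran from -0.015 to 0.052, Sdhc from -0.062 to 0.011, Cox4i1 from -0.087 to 0.0039, Cox8a from -0.061 to 0.029 and Atp5g1 from -0.14 to 0.011, and in the treatment comparison Sdhd ran from -0.013 to 0.024, Cox4i2 from -0.015 to 0.62, Cox6a1 from -0.043 to 0.036, Atp5g1 from -0.031 to 0.031 and Atp5g3 from -0.020 to 0.031. The cause of these shifts was not tested. Depth limits Cox4i2, Cox6a2, Cox6b2, Cox8b, Ndufa4l2 and Uqcr10, which had few reads.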

Other observations

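TGNT rats appear in both tables as different animals, and the level of some members differed between the tables, which were normalized apart. Of the 82 members counted in both, 15 had a mean RPM over 1.5 times as high in TGNT rats of the treatment table and 8 were lower by the same margin, beside 2217 and 1634 of 11343 genes. Ndufs7 was at 15.6 RPM in the genotype table and 49.8 RPM in the treatment table (3.2 times), Atp5d at 38.0 and 113.5 RPM, Ndufa7 at 14.1 and 37.0 RPM, Uqcrq at 17.9 and 43.0 RPM, and Ndufa11 at 19.9 and 47.5 RPM. Uqcrb was at 139.8 and 64.4 RPM, Ndufaf4 at 52.7 and 25.6 RPM and Cox6c at 203.7 and 126.9 RPM. The median ratio over the members was 1.01. No counted member differed by 1.5-fold between the groups of either table. What sets the tables apart was not tested.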
